A study of Mus musculus with 6 samples.

Results

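Genes of BATF, IRF4 and the subunits of the transcription factor AP-1 were followed in sorted T follicular helper (Tfh) cells. The 10 genes, *Batf*, *Batf3*, *Irf4*, *Irf8*, *Jun*, *Junb*, *Jund*, *Fos*, *Fosb* and *Fosl2*, were picked by symbol, and each has 1 row among the 14744 genes of the deposited table. AP-1 is a pair of basic leucine zipper proteins, usually 1 from the Jun family with 1 from the Fos or BATF family. BATF lacks the activation domain of the Fos proteins and, paired with a Jun protein, binds DNA together with IRF4 or IRF8 at composite elements of T cell genes. Mice without BATF or IRF4 make few Tfh cells, and BACH2 is a repressor whose binding site contains the AP-1 site.

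RNA was sequenced from Tfh cells of the mesenteric lymph nodes of C57BL/6 mice, named C57BL/6J in the study's methods. There were 3 libraries from WT and 3 from Bach2fl/flCd4-cre mice. In the study WT stands for littermates that carry the Cd4-cre transgene, and Cd4-cre recombines the loxP-flanked *Bach2* in T cells from the thymus on, so both CD4 and CD8 lineages are affected. The mice were 2 to 3 months old, and each sort of CD4+B220-CD44+PD-1+CXCR5+ cells, a gate that does not remove Foxp3+ cells, took 10000 to 30000 cells. Nothing in the labels says which samples came from separate animals, so p-values measure the spread between these samples. The sums of normalized read counts were 7809702, 7387316 and 8135325 in WT replicates 1, 2 and 3 and 7456435, 7362290 and 7361229 in the 3 other libraries. WT replicate 1 stood apart with 11648 genes above 0, against 13111 to 13567 elsewhere.

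The targeted gene was read first. *Bach2*, on chromosome 4 of GRCm38 from 32238804 to 32586108, had normalized counts of 233, 222 and 105 in WT replicates 1, 2 and 3 and 399, 763 and 591 in the other group. It was thus higher in each library of that group than in each WT library, against the label. The count is per gene and takes in exons outside the deleted part, and genes on either strand overlap *Bach2*, so the count does not check the deletion itself. The group is therefore called the libraries labelled Bach2-deficient, and every direction below is that of the label.

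*Batf* and *Jund* were the members whose 2 groups did not overlap: *Batf* was lower and *Jund* higher in the libraries labelled Bach2-deficient. No member passed the thresholds of the study's methods, which ask for more than 2-fold at an adjusted p under 0.01. Of the 10 members 9 reached 10 normalized counts in 3 or more libraries and were tested with limma on log2(normalized count + 1), with p-values adjusted over all 11296 genes tested. Limma called 0 of the 9, as it called 0% of all genes tested. At an unadjusted p under 0.05 it gave 2 of 9 members, *Batf* and *Jund*, beside 20.4% of all genes, a share near that of the members. Without replicate 3 labelled Bach2-deficient it gave 4, *Batf3* and *Irf4* besides, where 3061 of 11083 genes were under 0.05, and it gave *Jund* alone without WT replicate 3 and without replicate 1 or replicate 2 labelled Bach2-deficient. By direction these are 1 of 9 higher, beside 10.1% of all genes, and 1 of 9 lower, beside 10.2%. The groups did not overlap for 2 of 9 tested members, beside 26.9% of all genes, where 14.6% were higher and 12.2% lower. On the whole reads recovered from 5 libraries, DESeq2 called 0 of the 9 and 0.797% of all genes, and edgeR called 0 of the 9 and 0 of all.

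**Figure D1:**
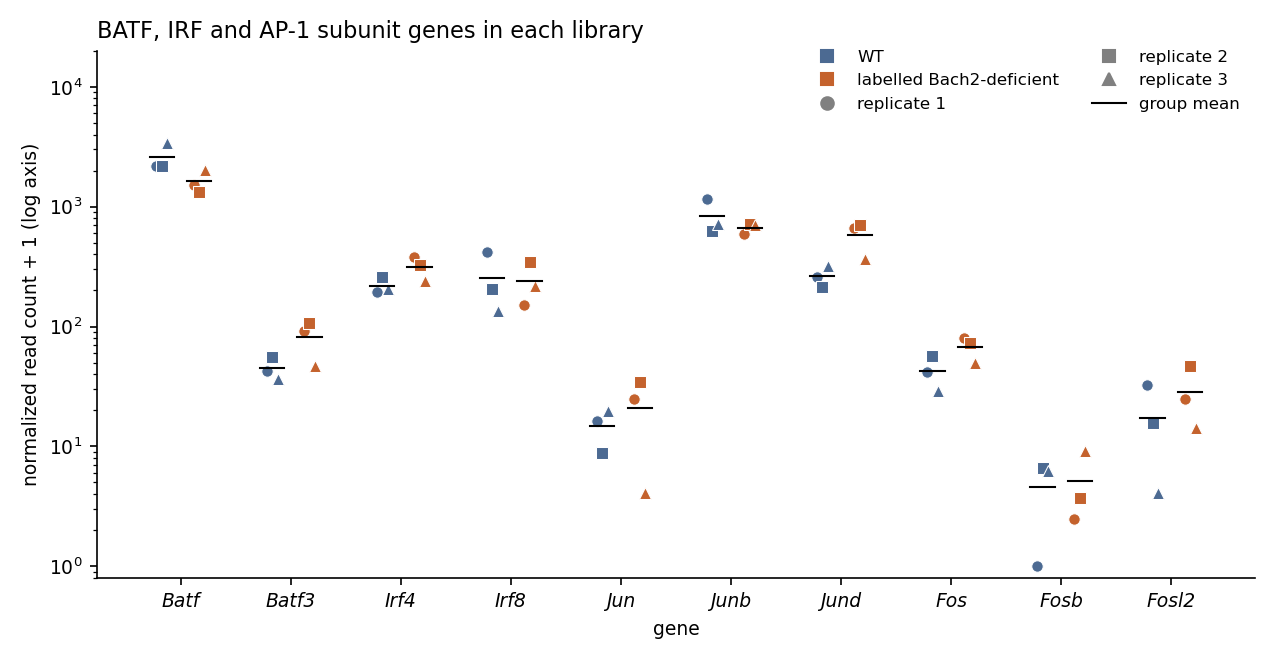
Normalized read count plus 1, on a log axis, of the 10 genes in each of the 6 libraries; colours give the group, marker shapes the replicate number and black bars the group mean. The 3 libraries labelled Bach2-deficient lie below all WT libraries for *Batf* and above them for *Jund*, and the groups overlap for the other 8 genes.

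Per kb of the longest annotated transcript, *Batf* was the most abundant member. Its level in WT was 2720 ± 736 (SD, n = 3) normalized counts per kb, above that of 97.7% of genes when averaged over the 6 libraries. *Junb* followed with 461 ± 156 per kb and *Jund* with 158 ± 31.9 per kb (SD, n = 3). These 3 levels did not overlap between WT libraries. *Irf8* at 72.4 ± 41.9, *Irf4* at 46.0 ± 7.42 and *Batf3* at 39.5 ± 9.05 per kb (SD, n = 3) overlapped with their neighbours in this order. Below and apart from them lay *Fos* at 19.7 ± 6.66 per kb, and apart from *Fos* lay *Jun* at 4.36 ± 1.74 per kb. *Jun*, *Fosl2* and, at 0.953 ± 0.827 per kb (SD, n = 3), *Fosb* each overlapped with the next. In the libraries labelled Bach2-deficient *Batf*, at 1704 ± 388 per kb, again came first, but *Junb* and *Jund*, at 368 ± 37.0 and 346 ± 111 per kb (SD, n = 3), overlapped. *Batf3* came next there, at 72.9 ± 28.2 per kb, within the spread of *Irf8* and *Irf4*.

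*Batf*, the leucine zipper partner of Jun proteins at composite elements, lies on chromosome 12 of GRCm38 from 85686669 to 85709087 on the plus strand, with 3 exons. Its normalized counts were 2201, 2183 and 3409.6 in WT replicates 1, 2 and 3, and 1528, 1316 and 2037 in replicates 1, 2 and 3 labelled Bach2-deficient. Replicate 3 was the highest library of each group, and the gap between the groups was narrow, from 2037 to 2183. The mean was 2598 ± 703 in WT and 1627 ± 371 (SD, n = 3) in the other group, 0.630 times the WT level on the fitted scale. Limma gave a log2 fold change of −0.67 with a 95% interval from −1.21 to −0.12 (SE 0.25, adjusted p = 0.185). DESeq2 and edgeR on 5 libraries gave −0.81 and −0.78, with adjusted p of 0.0860 and 0.181. In bulk RNA, fewer cells that express a gene and less of its RNA per cell cannot be told apart. The unadjusted p was above 0.05 without WT replicate 3 and without replicate 1 or replicate 2 labelled Bach2-deficient, and with no trend in the variance.

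*Batf3*, a smaller relative of BATF known from the development of cross-presenting dendritic cells, went the other way. It lies on chromosome 1 from 191097847 to 191108945, and its counts were 41.4, 55.0 and 35.4 in WT replicates 1, 2 and 3 and 90.2, 107 and 46.0 in the libraries labelled Bach2-deficient. Replicates 1 and 2 of the second group were above every WT library, while replicate 3, at 46.0, was below WT replicate 2. Limma gave a log2 fold change of 0.81 with a 95% interval from −0.34 to 1.95 (SE 0.51, adjusted p = 0.375), and its unadjusted p was 0.0475 without replicate 3 labelled Bach2-deficient.

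The promoter sequences of *Batf* and *Jund* are shown because their groups did not overlap, and those of *Jun* and *Fos* because they hold letters close to an AP-1 or CRE site. They come from RefSeq on GRCm38.p6 and run 5′ to 3′ on the strand of the gene up to its start. The *Batf* sequence stops at the GENCODE start, and the *Jund* sequence ends 1210 bases upstream of the GENCODE start of that gene, since RefSeq starts its transcript there. Capitals mark TGACATCA or TGACGT or CCAAT or TATAAA on either strand.
*Batf*, chr12:85686470-85686668, plus strand: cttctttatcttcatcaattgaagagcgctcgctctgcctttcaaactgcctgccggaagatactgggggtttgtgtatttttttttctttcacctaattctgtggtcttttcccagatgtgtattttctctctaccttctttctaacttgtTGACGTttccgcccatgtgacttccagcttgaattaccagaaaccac
*Jund*, chr8:70697489-70697738, plus strand: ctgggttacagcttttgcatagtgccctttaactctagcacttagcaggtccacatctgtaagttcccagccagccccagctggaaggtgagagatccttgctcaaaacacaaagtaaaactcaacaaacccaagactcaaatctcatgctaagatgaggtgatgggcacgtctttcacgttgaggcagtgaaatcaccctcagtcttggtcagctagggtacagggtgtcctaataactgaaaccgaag
*Jun*, chr4:95052223-95052472, minus strand: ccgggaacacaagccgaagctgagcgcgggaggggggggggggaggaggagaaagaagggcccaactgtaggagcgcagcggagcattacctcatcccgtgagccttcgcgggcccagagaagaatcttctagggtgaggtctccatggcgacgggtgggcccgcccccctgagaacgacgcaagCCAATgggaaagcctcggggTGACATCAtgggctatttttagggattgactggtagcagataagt
*Fos*, chr12:85473640-85473889, plus strand: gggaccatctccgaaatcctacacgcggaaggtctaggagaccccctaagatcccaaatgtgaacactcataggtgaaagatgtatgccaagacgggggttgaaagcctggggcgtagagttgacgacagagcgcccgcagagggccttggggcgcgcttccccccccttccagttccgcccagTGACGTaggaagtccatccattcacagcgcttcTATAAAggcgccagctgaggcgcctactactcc

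All 10 members were matched to RefSeq promoters, *Irf8* to 2 of them, which gives 11 windows from 250 bases before to 50 bases after the start. Each motif was searched on both strands of these and of all 32851 windows of the same length. The AP-1 site TGANTCA, of which TGACTCA is 1 form, was in 0 of the 11 and in 7.81% of all windows, and the CRE TGACGTCA in 0 and in 1.79%. TGACATCA, known as the AP-1 like site of the *Jun* promoter, was in the *Jun* window and in 3.62% of all windows. TGACGT, the first 6 letters of the CRE, was in the *Batf* and *Fos* windows and in 7.51% of all. CCAAT was in the windows of *Irf8*, *Jun* and *Junb* and in 37.4% of all, and TATAAA in those of *Fos*, *Irf4*, *Irf8* and *Junb* and in 13.6% of all. In the 250 upstream bases, *Jund* had 3 CpG and 47.6% G or C and *Batf* 7 CpG and 46.4%. These were the lowest figures of the member windows, where the median window had 6 CpG and 52.4%. The *Jund* bases end 1210 bases upstream of its GENCODE start, so they do not describe the sequence next to that start. The upstream bases of *Batf3*, of *Fosl2* and of 1 window of *Irf8* lie inside the GENCODE gene. These matches describe letters only.

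*Irf4*, the IRF that pairs with BATF and Jun proteins and whose amount follows T cell receptor signal strength, lies on chromosome 13 from 30749226 to 30766976. Its counts were 193, 259 and 205 in WT replicates 1, 2 and 3 and 383, 326 and 238 in replicates 1, 2 and 3 labelled Bach2-deficient. All 3 of the latter were above the WT mean of 219 ± 35.3 (SD, n = 3), but replicate 3 was below WT replicate 2. Limma gave a log2 fold change of 0.51 with a 95% interval from −0.14 to 1.16 (SE 0.29, adjusted p = 0.335). Without replicate 3 labelled Bach2-deficient the unadjusted p was 0.0387. The log2 fold change was 0.12 once a smooth trend in transcript length and GC content was taken off each library, and *Irf4* has a transcript of 4.764 kb. The ratio of *Batf* to *Irf4* counts within a library, chosen after the values were seen, was 11.4, 8.42 and 16.6 in WT and 3.99, 4.04 and 8.55 in the libraries labelled Bach2-deficient. Replicates 1 and 2 of that group had the lowest ratios, and replicate 3 just exceeded WT replicate 2.

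*Irf8*, an IRF of myeloid and B cells that can also bind with BATF, lies on chromosome 8 from 120736358 to 120756694. It had counts of 414, 205 and 134 in WT replicates 1, 2 and 3 and 149, 346 and 219 in the libraries labelled Bach2-deficient. Each group held both high and low libraries. By limma the groups differed by −0.0045 on the log2 scale (SE 0.45, adjusted p = 0.996). Without WT replicate 1 limma gave 0.43, and DESeq2 on the same 5 libraries 0.47. For comparison, 10 B cell genes summed to 242, 846 and 596 in WT and 463, 412 and 365 in the other group, and 12 myeloid and dendritic cell genes to 3052, 8267 and 4150.0 and to 2301, 5796 and 1969. WT replicate 1 had the highest *Irf8* count and the lowest B cell sum, but also the highest counts of *Cd209a*, at 606 there and 1.04 to 42.2 elsewhere, *Xcr1*, at 104 and 17.4 to 69.5, and *Zbtb46*, at 65.6 and 31.2 to 59.1, dendritic cell genes chosen after their values were seen. Other genes of that list were lowest in WT replicate 1, *Clec9a* at 0 there and 2.08 to 47.1 elsewhere, and *Csf1r* at 14.1 and 152 to 371. Whether *Irf8* came from other cells was not tested. By normalized counts, which are not divided by length here or for any gene list below, the most abundant genes of the B cell and the myeloid list were *Cd79b*, at 112, 369 and 225 in WT and 102, 145 and 117 in the other libraries, and *Lyz2*, at 1848, 7212 and 3444 and at 1445, 4396 and 1407.

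Among the Jun genes, whose proteins are the obligate partners of Fos and BATF proteins, *Jund* differed most. *Jund*, a single exon of 1.668 kb on chromosome 8 from 70698949 to 70700616, had counts of 260.4, 213 and 319 in WT replicates 1, 2 and 3 and 662, 706 and 366 in replicates 1, 2 and 3 labelled Bach2-deficient. Replicates 1 and 2 of the second group were more than 2-fold above every WT library, and replicate 3 was close to WT replicate 3. The means were 264 ± 53.2 and 578 ± 185 (SD, n = 3), 2.13-fold apart on the fitted scale. Limma gave a log2 fold change of 1.09 with a 95% interval from 0.40 to 1.78 (SE 0.31, adjusted p = 0.146), higher in 3 of 3 libraries. DESeq2 on 5 libraries gave the same 1.09 with an adjusted p of 0.0529, and edgeR 1.11 with 0.168. Without replicate 3 labelled Bach2-deficient it was 1.39 with a limma adjusted p of 0.0397, where the adjusted p over all alternatives ran from 0.0397 to 0.501.

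*Junb*, known as a partner of BATF in Th17 cells and as an immediate early gene, lies on chromosome 8 from 84974484 to 84978718. Its counts were 1157, 626 and 721 in WT replicates 1, 2 and 3 and 588, 709.6 and 698 in the libraries labelled Bach2-deficient. WT replicate 1 was far above the other 5, which lay between 588 and 721. Limma gave a log2 fold change of −0.28 with a 95% interval from −0.86 to 0.30 (SE 0.26, adjusted p = 0.541), and −0.02 without WT replicate 1. *Jun*, the gene of c-Jun, on chromosome 4 from 95049034 to 95052222, was low: 15.1, 7.85 and 18.7 in WT and 23.6, 33.5 and 3.07 in the other group, from 3 to 50 recovered reads. Its highest and its lowest library were both labelled Bach2-deficient. Its log2 fold change of 0.10, with a 95% interval from −2.19 to 2.39 (limma adjusted p = 0.967), turned to −0.18 with quantile normalization and to −0.25 when the trend in length and GC was taken off. Genes on the opposite strand overlap all 3 Jun genes, *Junos* at *Jun* and *Prdx2* at *Junb* among them, and whether strand was used in counting is not given in the sources used here.

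The make-up of the Jun family can be read within each library, with no scaling between libraries. Per kb, *Jund* made up 19.5%, 26.8% and 32.1% of Jun-family transcripts in WT replicates 1, 2 and 3 and 54.4%, 51.2% and 36.2% in replicates 1, 2 and 3 labelled Bach2-deficient. Each library of the second group was above each WT library, with the smallest distance between both replicates 3. The mean share was 26.2% ± 6.34 and 47.3% ± 9.72 (SD, n = 3), a difference of 21.1 percentage points (2-sided exact permutation p = 0.1, the smallest that 3 against 3 can give). *Junb* made up most of the rest, 73.1% ± 6.52 in WT and 51.9% ± 10.3 in the other group (SD, n = 3), and *Jun* at most 1.27% of any library. The sum of the 3 genes per kb overlapped between the groups, at 624 ± 164 and 720.5 ± 110 (SD, n = 3). *Jund* thus took a larger share of a family total that was not separated between the groups.

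**Figure D2:**
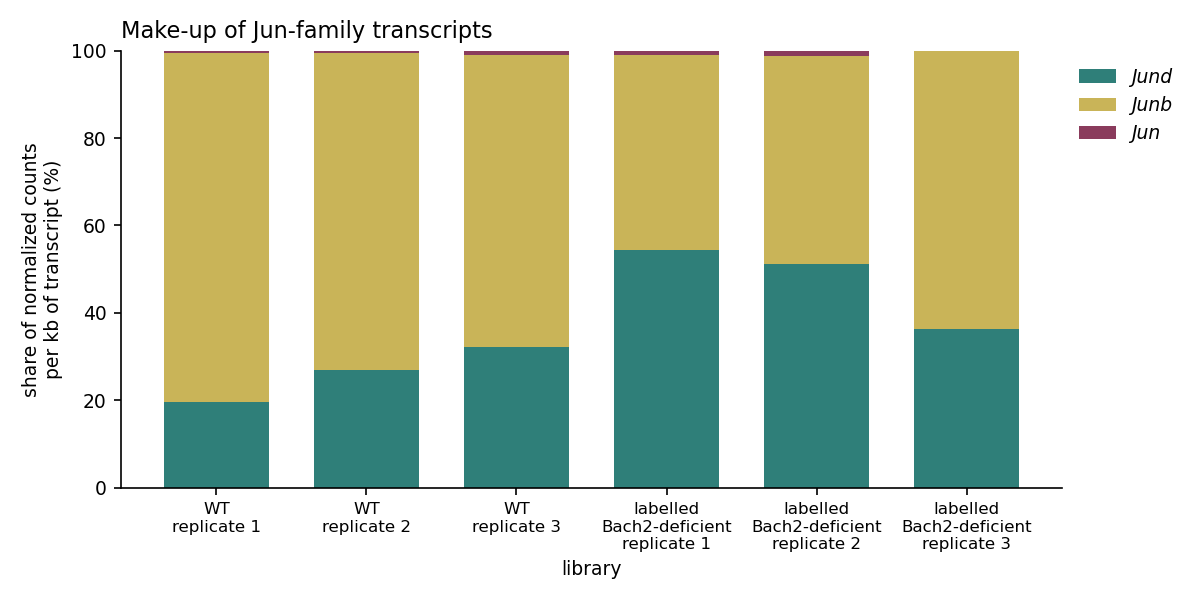
Share of *Jund*, *Junb* and *Jun* in the normalized counts per kb of transcript of the 3 genes, as stacked bars to 100%, for each library. The *Jund* share is 19.5% to 32.1% in the WT libraries and 36.2% to 54.4% in the libraries labelled Bach2-deficient.

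The Fos genes, whose proteins bind DNA only with a Jun partner, were low in every library. *Fos*, on chromosome 12 from 85473890 to 85477273, had counts of 40.4, 56.1 and 28.1 in WT replicates 1, 2 and 3 and 79.8, 72.4 and 49.1 in the libraries labelled Bach2-deficient. Replicates 1 and 2 of the second group were above every WT library, and replicate 3 was below WT replicate 2, as for *Batf3* and *Irf4*. Limma gave a log2 fold change of 0.70 with a 95% interval from −0.44 to 1.85 (SE 0.52, adjusted p = 0.435). *Fosl2*, the gene of FRA2, on chromosome 5 from 32135801 to 32157842, ranged from 3.12 to 31.3 in WT and from 13.3 to 45.6 in the other group, a log2 difference of 0.99 by limma (SE 0.97, adjusted p = 0.560). This ran from 0.18 to 1.67 when single libraries were left out. *Fosb*, on chromosome 7 from 19302696 to 19310051, was the member not tested: its counts were 0, 5.61 and 5.20 in WT and 1.48, 2.68 and 8.18 in the other group. The 0 of WT replicate 1 allows up to 3.03 normalized counts, if a step of its values is 1 read. Whether a difference in *Fosb* could be detected at this depth was not tested, and such a floor covers counting error only.

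**Figure D3:**
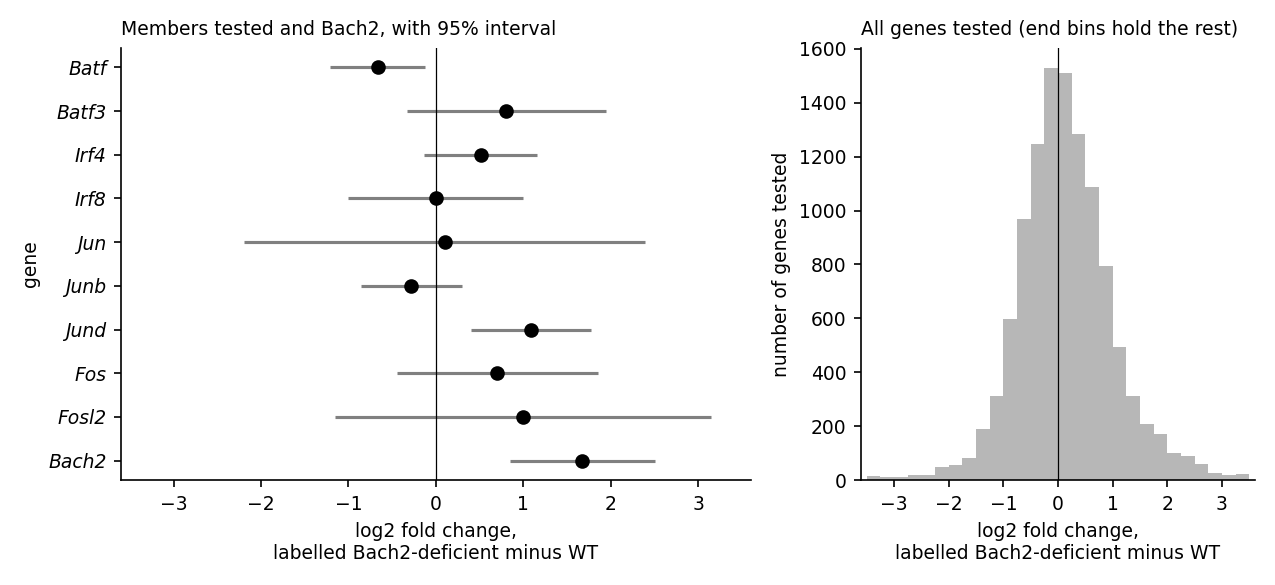
Log2 fold change of the 9 tested members and of *Bach2*, libraries labelled Bach2-deficient minus WT, with 95% confidence intervals from limma (left), and the same measure for all 11296 genes tested as a histogram (right). The intervals of *Batf*, *Jund* and *Bach2* lie on 1 side of 0, and those of the other 7 genes cross it.

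For each of *Batf*, *Irf4* and *Jund*, the 3 tested genes with the most similar pattern were found by Pearson's r of log2(normalized count + 1) over the 6 libraries, which fall into the 2 groups. For *Batf* these were *Alg12*, *Trbc2* and *Gtf2h2*, with r of 0.989, 0.988 and 0.985. For *Irf4* they were *Tmem135*, *Tnpo1* and *Slc2a4rg-ps*, with r of 0.998, 0.998 and 0.997. For *Jund* they were *Nelfb*, *Smarcc2* and *Pou2af1*, with r of 0.994, 0.994 and 0.993. Such values are common over 6 libraries: r was above 0.9 for 238 genes with *Batf*, 582 with *Irf4* and 345 with *Jund*.

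Other leucine zipper genes that can enter AP-1 were few and showed no common direction. Of 7, 4 were tested and 0 had an unadjusted limma p under 0.05, with a median log2 fold change of 0.07 where that of all genes tested was 0.08. For this and the next lists, the share of all genes under that p was 10.1% higher and 10.2% lower, and after the trend in length and GC was taken off it was 567 genes higher and 1108 lower of 11264. The most abundant, *Atf4* of the integrated stress response, was at 905, 777 and 1032 in WT and 1085, 1087 and 919 in the libraries labelled Bach2-deficient. *Jdp2* had the lowest log2 fold change, −0.72, and *Atf7* the highest, 0.58. *Fosl1*, *Batf2* and *Atf3* were not tested. *Atf3*, a stress-induced gene, was at 61.6 in WT replicate 1 and between 0 and 1.34 elsewhere.

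The CNC and small Maf genes, whose proteins bind an extended AP-1 site, had a median log2 fold change of 0.87 over 7 tested genes. At an unadjusted limma p under 0.05, 2 were higher, *Bach2* and *Mafg*, and 0 lower. By the thresholds 1 of the 7 passed with DESeq2 on 5 libraries, *Bach2*, as higher (log2 fold change 1.81, adjusted p = 0.00123), and 0 passed with edgeR. *Mafg*, a small Maf that serves as partner of BACH2, was at 209.9, 222 and 243 in WT and 551, 331 and 399 in the libraries labelled Bach2-deficient, without overlap (log2 fold change 0.89, limma adjusted p = 0.155). The log2 fold change was highest for *Bach2*, at 1.68, and lowest for *Maff*, at −0.14, and the most abundant gene was *Nfe2l2*, the gene of NRF2, at −0.12. After the trend in length and GC was taken off, the median was 0.25, with 1 higher, *Bach2*. The 7 other IRF genes had a median of −0.07 and 0 with an unadjusted p under 0.05, or a median of −0.30 and 1 lower, *Irf7*, with that trend taken off. Before that trend was taken off, *Irf1*, an interferon-induced activator and the most abundant of these IRF genes, was at −0.12, and *Irf3* was highest at 0.22.

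The MAP kinase route, which activates AP-1 through phosphorylation of Jun and transcription of Fos genes, was above 0 in log2 fold change for 14 of 18 genes, where 6185 of all 11296 genes were. Of 18 tested genes 7 had an unadjusted limma p under 0.05 and were higher, beside 10.1% of all genes, and 0 were lower, beside 10.2%. Limma and edgeR passed 0 of the 18 by the thresholds, and DESeq2 on 5 libraries passed 2, both higher, *Map3k5* and *Mapk3*, with log2 fold changes of 1.21 and 1.30 and adjusted p of 0.00875 and 0.00420. The groups did not overlap, and were higher, for 8 of the 18, beside the 14.6% of all genes. *Map3k5*, the gene of a stress-activated kinase, with the highest log2 fold change, 2.29, was at 32.3, 288 and 336 in WT and 906, 790.0 and 529 in the libraries labelled Bach2-deficient, with WT replicate 1 far below the rest. *Map2k3*, an activator of p38 kinases, was lowest at −0.50. The median was 0.47, or 0.28 after the trend in length and GC was taken off, where 5 genes were higher and 0 lower at an unadjusted p under 0.05, beside 567 and 1108 of 11264 genes. The summed list was 6556, 6894 and 7467 in WT and 10455, 10063 and 8450.3 in the other group, without overlap.

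Of 7 genes for turnover and partners of AP-1, 3 were higher at an unadjusted limma p under 0.05, *Fbxw7*, *Nfatc1* and *Nfatc2*, and 1 lower, *Men1*, with a median log2 fold change of 0.10. After the trend in length and GC was taken off, the median was −0.11, with 1 higher, *Fbxw7*, and 2 lower, *Men1* and *Nfatc3*, where more of all genes were lower as well, 1108 against 567. *Fbxw7*, of a ubiquitin ligase that targets Jun proteins, had the highest log2 fold change, 1.85, with counts of 26.2, 150.3 and 82.1 in WT and 304, 262 and 200.5 in the libraries labelled Bach2-deficient. *Nfatc1*, a factor that binds beside AP-1 and the most abundant of the list, was at 1695, 1503 and 1702 and at 2786, 2434 and 1772. *Men1*, the gene of menin, a binding partner of JunD, had the lowest log2 fold change, −3.02, at 61.6, 23.6 and 15.6 and at 1.48, 0 and 18.4. The WT and other libraries overlapped for *Men1* and did not for *Fbxw7* and *Nfatc1*. DESeq2 on the 5 libraries without WT replicate 1 gave −1.58 for *Men1* (adjusted p = 0.574) and 1.10 for *Fbxw7*.

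Immediate early genes share rapid induction with *Fos* and *Junb*. Of 20, 19 were tested, 3 were higher at an unadjusted limma p under 0.05 and 0 lower, with 10 log2 fold changes above 0 and 9 below, and a median of 0.06, or −0.13 after the trend in length and GC was taken off. The 3 were *Egr1*, *Ier5* and *Trib1*. With that trend taken off, 2 were higher, *Egr1* and *Ier5*, and 0 lower. *Egr1*, a zinc finger gene induced through the same kinases, had the highest log2 fold change, 1.49, with 131, 325 and 395 in WT and 808, 729 and 640.3 in the libraries labelled Bach2-deficient. *Nr4a2* was lowest, at −2.08, where WT replicate 1 had 802 and all other libraries between 8.18 and 94.6. DESeq2 on the 5 libraries without WT replicate 1 gave 0.98 for *Egr1* and −0.65 for *Nr4a2*. There *Nr4a1*, at 1.28, was highest. *Nfkbia*, the inhibitor of NF-κB and the most abundant, was at −0.26. How the cells were handled before lysis was not tested.

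Textbook target genes of BATF, IRF4 and AP-1 in T cells were split. Of 17, 16 were tested. At an unadjusted limma p under 0.05, *Il4*, *Bcl6* and *Gata3* were higher, and *Il10*, *Il17f*, *Il23r*, *Icos* and *Ifng* lower, 3 and 5 genes. With the trend in length and GC taken off there were 3 and 3. By the thresholds, *Gata3* passed as higher and *Il17f*, *Icos* and *Ifng* as lower with DESeq2 on 5 libraries, 1 and 3 of 16, where 33 and 57 of 11295 genes passed, and edgeR passed 0 of the 16. *Il4*, *Gata3*, *Ifng* and *Il17f* were reported by the study from these same libraries, so their direction here is no independent evidence. *Gata3*, the Th2 regulator, had the highest log2 fold change, 1.48, and *Il17f* the lowest, −4.70. *Maf*, the most abundant, was at 0.45. *Icos*, the costimulatory receptor of Tfh cells, was at 2547, 4079 and 4953 in WT and 1675, 1440 and 2511 in the libraries labelled Bach2-deficient, without overlap. *Il10*, a cytokine gene that needs both BATF and IRF4 in effector T cells, was at 262, 61.7 and 155 and at 59.1, 54.3 and 43.0.

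**Figure D4:**
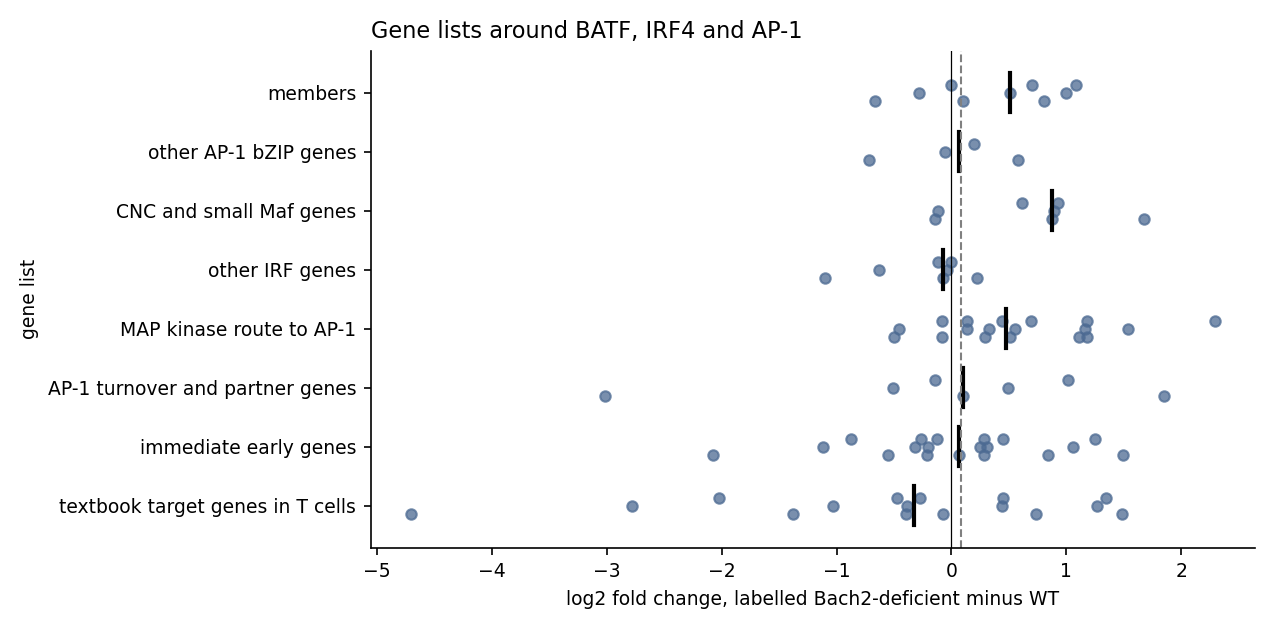
Log2 fold change of each tested gene, libraries labelled Bach2-deficient minus WT, for the members and 7 gene lists; dots are genes, black bars list medians, and the dashed line is the median of all genes tested, 0.08. List medians run from −0.33 for the target genes to 0.87 for the CNC and small Maf genes.

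Lists of T cell subset markers were read as well, and their part in the values of *Batf*, *Irf4* and *Jund* was not tested. The Th17 list, a subset that depends on BATF and IRF4, summed to 1586, 897 and 669 in WT and 638, 328 and 339 in the libraries labelled Bach2-deficient. Of its 6 tested genes of 7, 3 were lower at an unadjusted limma p under 0.05, *Il17f*, *Il23r* and *Ccr6*, the most abundant was *Il1r1*, and *Il17a* was at 0 in 2 libraries and not tested. The Th1 list summed to 8606, 7416 and 7730.1 and to 2847, 5711 and 3008, with 3 of 6 lower, *Ifng*, *Cxcr3* and *Nkg7*, the most abundant being *Nkg7*. The groups did not overlap in either sum. The Th2 list went the other way, also without overlap, at 1301, 1327 and 1904 and at 3204, 4657 and 3271, with 4 of 5 tested genes higher, *Gata3*, *Il4*, *Il1rl1* and *Il17rb*. *Il4* was its most abundant gene, and *Il5* and *Il13* were at 0 in 4 and 2 libraries and not tested. The regulatory T cell list had 2 of 6 genes lower, *Foxp3* and *Tnfrsf18*, and sums of 6426, 6983 and 8780.3 and of 6992, 5971 and 5325 that overlapped, led by *Ikzf2*. Of these lists DESeq2 on 5 libraries passed *Il17f*, *Ccr6*, *Ifng*, *Cxcr3* and *Foxp3* as lower by the thresholds, where 57 of 11295 genes passed. It passed *Gata3*, *Il1rl1* and *Il17rb* as higher, where 33 genes did, and limma and edgeR passed 0. *Foxp3*, like *Il4*, *Gata3*, *Ifng* and *Il17f*, was reported by the study from these same libraries, so its direction here is no independent evidence.

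The label of the cells was checked against Tfh markers. All 10 were present in each library, with sums of 31169, 32182 and 43089.5 in WT and 28257, 23216 and 30349 in the libraries labelled Bach2-deficient, led by *Sh2d1a*. The sum was thus lower in the second group, without overlap but with a narrow gap, from 30349 to 31169. It includes *Cd3e*, a gene of T cells in general, at 10623, 9648 and 11924 in WT and 4534, 5238 and 6140 in the other group. Of the 10 genes, 5 had a log2 fold change above 0 and 5 below, with a median of −0.08. The lower sum is therefore not a shared fall of the Tfh markers. *Cd4*, *Bcl6* and *Tox2* were higher and *Cd3e* and *Icos* lower at an unadjusted limma p under 0.05, 3 and 2 of 10, beside 10.1% and 10.2% of all genes. With the trend in length and GC taken off, *Cd200* and *Tox2* were higher and *Cd3e* and *Icos* lower, 2 and 2. *Cd3e* and *Icos* also passed the thresholds as lower with DESeq2 on 5 libraries, and 0 of the 10 with edgeR. Of the B cell genes 1 of 7 tested was lower, *Ms4a1*, and of the myeloid and dendritic cell genes 0 of 11 were higher or lower. DESeq2 on 5 libraries passed *Cd79a* as lower (log2 fold change −2.71, adjusted p = 0.000455) and 0 of the 11, and edgeR 0 of both lists, while limma without WT replicate 1 gave *Lyz2* lower and without WT replicate 2 *Csf1r* and *Clec9a* higher. It gave *Lyz2* and *Siglech* lower without replicate 2 and *Adgre1* higher without replicate 3 labelled Bach2-deficient, and *Csf1r* higher without WT replicate 3. The 2 CD8 genes gave 0, with sums of 176, 786 and 552 and of 361, 332 and 413, led by *Cd8b1*. Naive T cell genes gave 1 higher, *Tcf7*, and 1 lower, *Ccr7*, of 7, and sums of 11898, 12679 and 9591 and of 14002, 13869.9 and 12027 that overlapped. Of 10 proliferation genes 1 was higher, *Mcm5*, and 3 lower, *Ccnb1*, *Rrm2* and *Tyms*, with sums of 22791, 9005 and 15543 and of 11484, 8684 and 13222, led by *Birc5*. WT replicate 1 had the highest proliferation sum and the lowest B cell and CD8 sums of the 6 libraries.

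Counts at an unadjusted p under 0.05 depend on single libraries: the 2301 genes over all 6 libraries became 1058, 1200.0 and 3061 without replicates 1, 2 and 3 labelled Bach2-deficient and 2149, 2490 and 1867 without WT replicates 1, 2 and 3. Over the same fits the MAP kinase list gave 4, 5 and 7 higher with 0, 0 and 1 lower and then 6, 5 and 7 higher with 0, 1 and 0 lower, and the target genes 2, 2 and 5 higher with 6, 4 and 3 lower and then 3, 3 and 3 higher with 4, 4 and 3 lower. The list of turnover and partners had 1 to 3 higher and 0 or 1 lower, the Tfh list 1 to 3 higher and 2 or 3 lower, and the proliferation list 0 to 6 lower. Without WT replicate 1, *Batf* and *Jund* were again the 2 members counted, the list of turnover and partners gave 2 higher and 0 lower, and the B cell, Th17, CD8, naive T cell and proliferation lists 3, 2, 1, 0 and 0 lower. Across 11264 genes, which are not independent replicates, transcript length and log2 fold change had a Spearman's rho of 0.320.

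**Figure D5:**
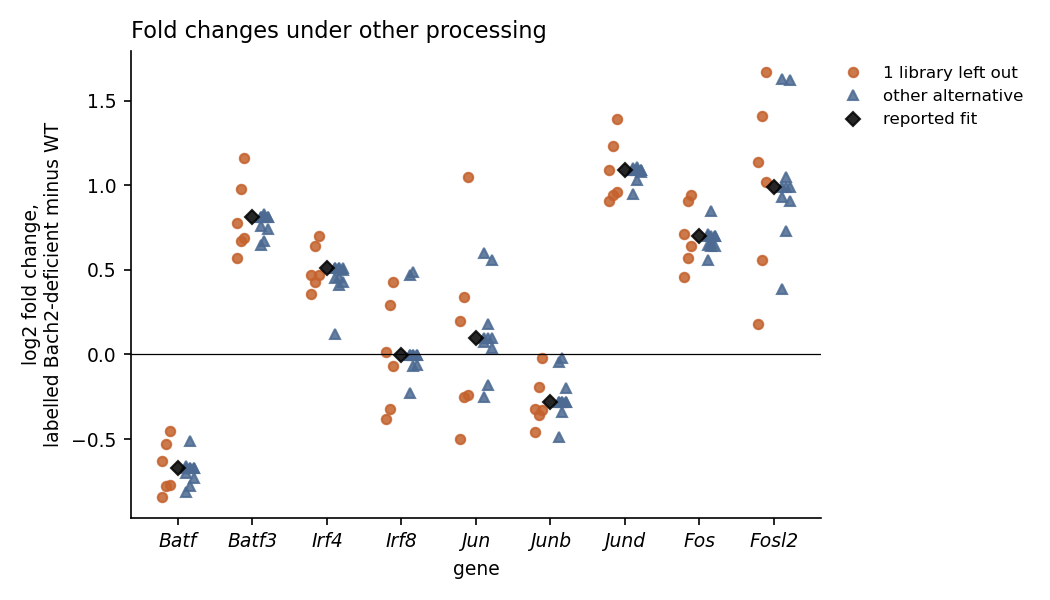
Log2 fold change of the 9 tested members, libraries labelled Bach2-deficient minus WT, in the reported fit (diamonds), with single libraries left out (circles) and under the other alternatives (triangles). *Jund* stays between 0.91 and 1.39 and *Batf* between −0.84 and −0.45, while *Jun* and *Irf8* fall on both sides of 0.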

How the data were processed

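The deposited values, 1 signal per gene and library, are read counts that the authors divided by size factors. The study's methods name Tophat2, HTSeq and DESeq2, whereas the submitters' processing notes list STAR 2.5.2b, DESeq, R 3.5.1, DESeq2 1.20.0 and GRCm38. The aligner of these values is therefore uncertain. Every column was used.

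Log2(normalized count + 1) was fitted with limma 3.58.1 (R 4.3.3), with a trended variance, over genes that reached 10 normalized counts in 3 or more libraries, with Benjamini-Hochberg adjustment. For low genes a fold change on this scale depends on the added 1, in either direction. With 0.5, 1 and 5 added, *Fosl2* was at 1.05, 0.99 and 0.73 and *Jun* at 0.07, 0.10 and 0.18. In every library 100% of values were whole multiples of 1 step within 0.01. EdgeR 4.0.16 and DESeq2 1.42.0 were run on 5 libraries, with 5045131 to 10987752 reads each. WT replicate 1, with a step of 1.01, was left out of count tests because a step this near a power of 10 is not accepted as 1 read. Transcript length, GC content and coordinates are from GENCODE M21 on GRCm38, matched for 99.6% of genes. The procedures were tested on simulated data.

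The members and lists were chosen with earlier results of these data known. Named are the 10 members, *Bach2*, of each list the most abundant gene and those with the lowest and highest log2 fold change, and the 3 genes most like *Batf*, *Irf4* and *Jund*; some genes this rule or the counts would name are not reported here. Genes named beside small counts, and *Icos*, *Il10*, *Cd209a*, *Xcr1*, *Zbtb46*, *Clec9a* and *Csf1r*, were chosen after their values were seen. The lists were other AP-1 genes, CNC and small Maf, other IRF, MAP kinase, AP-1 turnover and partners, immediate early and target genes, and markers of Tfh, B, myeloid and dendritic, regulatory T, Th1, Th2, Th17, CD8 and naive T cells and of proliferation. Alternatives were other pseudocounts, filters, scalings, variance models and count tests, a replicate block, a length and GC trend and single libraries left out.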

Additional observations from a re-analysis of the deposited data

How the results depend on the processing

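Limma called 0 genes higher and 0 lower past the thresholds under each alternative fit of the deposited values, the replicate block included, and edgeR on 5 libraries called 0 and 0. At an adjusted p under 0.05 with no fold threshold, limma on all 6 libraries also gave 0 and 0. That count was not stable: it became 184 higher and 327 lower, *Jund* included, without replicate 3 labelled Bach2-deficient, and 2 higher with no variance trend, and DESeq2 on 5 libraries gave 171 and 197. Limma on 6 libraries had 2301 genes at an unadjusted p under 0.05, and edgeR 2070. DESeq2 on 5 libraries called 33 genes higher and 57 lower, and the cause was not tested. With single libraries left out, limma called 0 genes past the thresholds in either direction.

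*Batf*, *Batf3*, *Irf4*, *Junb*, *Jund*, *Fos* and *Fosl2* kept the direction of their log2 fold change in every alternative run, and no member passed the thresholds in any. *Jund* ran from 0.91 to 1.39, *Batf* from −0.84 to −0.45, *Irf4* from 0.36 to 0.70, *Batf3* from 0.57 to 1.16, *Fos* from 0.46 to 0.94, *Junb* from −0.46 to −0.02 and *Fosl2* from 0.18 to 1.67 when each library was left out in turn. *Irf4* was at 0.12 with the length and GC trend removed, a setting that moved the median of all genes by −0.119. *Jun* turned to −0.18 with quantile normalization and −0.25 with that trend removed, and leaving out a library gave −0.50 to 1.05. *Irf8* turned to 0.49 with edgeR and 0.47 with DESeq2, both on the 5 libraries without WT replicate 1, where limma gave 0.43, and it was −0.38 at the lowest with another library left out. The difference in the *Jund* share stayed above 0 in all 7 alternatives, at 20.5 percentage points for counts without length.

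No pairing by replicate number was seen, since deviations from the group mean correlated at −0.069, 0.116 and −0.039 for numbers 1, 2 and 3. The replicate block gave log2 fold changes of 1.09 for *Jund* and −0.67 for *Batf* and changed no call. *Jun*, *Fosb* and *Fosl2* had 3, 0 and 3 reads in their lowest libraries, and whether depth limits them was not tested.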
